A study of Rattus norvegicus with 12 samples.

Results

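The transcripts described here carry a long-chain fatty acid from the outside of a rat hepatocyte into the mitochondrial matrix. The 8 genes were taken by name: Cd36, Slc27a2, Fabp1, Acsl1, Acsl5, Cpt1a, Slc25a20 and Cpt2, out of 14217 genes with a symbol of their own in the annotation of the array. Every probe set that the annotation gives to 1 of these genes alone was followed, which made 12 probe sets out of 31042. Cd36, Slc27a2, Fabp1, Slc25a20 and Cpt2 had 1 each, Cpt1a and Acsl5 had 2, and Acsl1 had 3. All 8 symbols were present. The values are log2 signals of hybridization, so a difference of 1 is a doubling, and each is relative to the other probe sets of the same array.

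Hepatocytes came from rats of the strain given as Fischer 334, were freed from the liver by collagenase perfusion and went to RNA extraction without culture. The control group was 3 heart-beating donors, and the other groups were animals dead for 4, 16 or 30 h, 3 of each, with 1 array per animal. Age, sex, the time of day of isolation and the keeping of the body after death are not given in these sources. Each preparation is a bulk of cells, in which fewer cells of a type and less RNA per cell cannot be told apart.

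Fatty acids enter the hepatocyte with the help of membrane proteins such as the scavenger receptor Cd36 and the transport protein Slc27a2, and are bound in the cytosol by Fabp1. Long-chain acyl-CoA synthetases, among them Acsl1 and Acsl5, join them to coenzyme A. Cpt1a on the outer mitochondrial membrane then moves the acyl group to carnitine, the carrier Slc25a20 exchanges acylcarnitine for free carnitine across the inner membrane, and Cpt2 on the matrix side restores the acyl-CoA for beta-oxidation. The Cpt1a step is the known control point of the route in liver and is blocked by malonyl-CoA, and several of the genes are known targets of the fatty acid receptor PPAR alpha.

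Over the route, Cpt1a and Cd36 moved most. Cpt1a rose 3.6-fold by its brighter probe set at 16 h and lay 1.79-fold below heart-beating donors at 30 h. Its dimmer probe set differed by log2 values of 0.16 and -0.30 at these times and was not called at either. The probe set given to Cd36 alone was 6.88-fold lower at 30 h. A brighter probe set that lists Cd36 with the related gene Cd36l1 was lower by less at 30 h, by a log2 difference of -0.53. Slc27a2 rose slightly at 16 and 30 h, Slc25a20 fell at 30 h, and 1 of 2 probe sets of Acsl5 rose at 30 h. Acsl1, Fabp1 and Cpt2 were called in none of the comparisons with heart-beating donors by limma, with adjusted p from 0.244 to 0.999 over their 5 probe sets.

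RefSeq (assembly GRCr8) gives a start of transcription for each of the 8 genes, and the 250 bases before it are shown for 3 of them: Cd36 and Cpt1a, whose signals moved most, and Fabp1, the holder of the only match to a PPAR element among the 8. The motif searched was AGGNCANAGGTCA on both strands, with N for any base, and 29 of 33469 promoters of this length (0.0866%) held it. In Fabp1 it lay on the reverse strand from base -77 to -65 before the start, in capitals here. The single site AGGTCA, which is part of that motif, was found in 2 of the 8 (Fabp1 and Slc27a2) and in 14.1% of all promoters, and the E-box CACGTG of clock factors in 0 of the 8 and in 5.59% of all. A match is a description of letters, and other starts of the same genes were not searched.
Cd36, chr4:18246332-18246581, plus strand: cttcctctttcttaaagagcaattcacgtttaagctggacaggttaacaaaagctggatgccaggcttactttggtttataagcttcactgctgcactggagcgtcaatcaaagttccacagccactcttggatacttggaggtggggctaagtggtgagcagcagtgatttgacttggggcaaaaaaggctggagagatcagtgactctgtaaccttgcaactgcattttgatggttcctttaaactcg
Cpt1a, chr1:209995910-209996159, plus strand: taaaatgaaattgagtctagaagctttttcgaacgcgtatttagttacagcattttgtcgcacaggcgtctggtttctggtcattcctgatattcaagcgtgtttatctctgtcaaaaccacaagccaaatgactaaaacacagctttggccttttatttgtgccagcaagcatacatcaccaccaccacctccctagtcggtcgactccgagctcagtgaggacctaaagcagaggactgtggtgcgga
Fabp1, chr4:104749090-104749339, plus strand: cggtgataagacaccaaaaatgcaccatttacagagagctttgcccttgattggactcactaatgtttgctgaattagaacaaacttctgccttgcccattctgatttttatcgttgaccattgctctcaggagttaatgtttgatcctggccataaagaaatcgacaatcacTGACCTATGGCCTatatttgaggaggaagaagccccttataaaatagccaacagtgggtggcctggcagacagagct

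**Figure D1:**
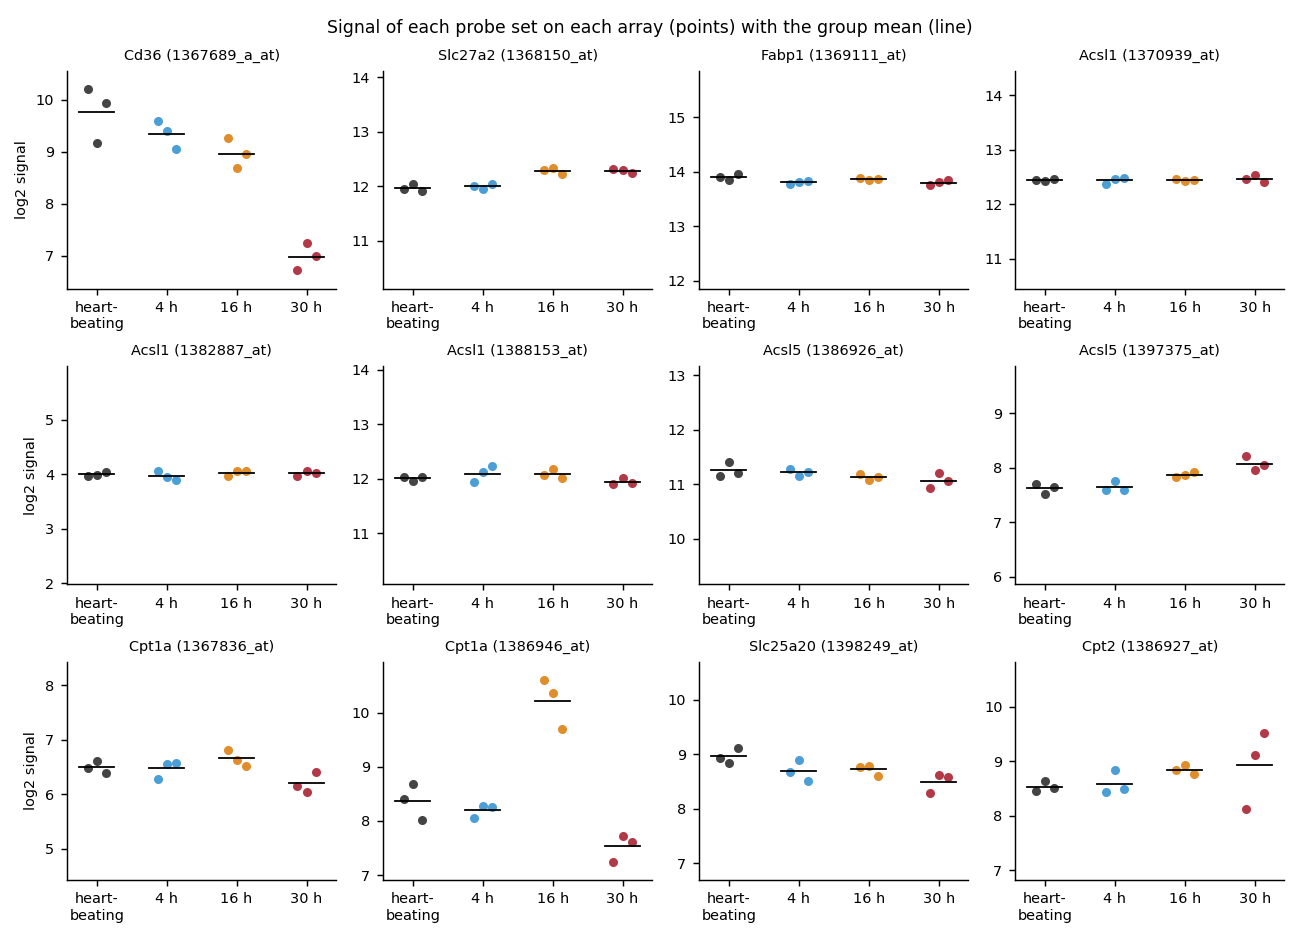
Log2 signal (vertical axis) of the 12 probe sets in the 4 groups (horizontal axis), with a point for each animal and a line at the group mean of 3. The 30 h points of Cd36 (6.72 to 7.24) lie below all others of that probe set, and the 16 h points of Cpt1a 1386946_at (9.70 to 10.61) above all others of theirs.

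Each time after death was compared with heart-beating donors in a single limma fit over all 31042 probe sets, and a probe set was called when its p, adjusted over all of them, was under 0.05. The 3 comparisons share the heart-beating arrays. At 4 h 0 of the 12 probe sets were called, against 0.0226% of all probe sets. At an unadjusted limma p under 0.05 there was 1 of the 12, and 1637 of all 31042. At 16 h 2 were higher, against 3.18% of all, and 0 lower, against 1.49%. Without adjustment 4 of the 12 passed a p of 0.05 at 16 h in either direction, 1 of them lower, and 5938 of all did. At 30 h 2 were higher, against 10.4% of all, and 3 were lower, against 9.36%. The median difference of the 12 was -0.03, 0.06 and -0.08 at 4, 16 and 30 h, beside 0.00, -0.02 and 0.01 over all probe sets. The count at 16 h was 3 without heart-beating donor 2, and 1 without heart-beating donor 3 or 16 h animal 2.

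Between times after death, 2 of the 12 were higher at 16 h than at 4 h, against 5.31% of all. At 30 h 2 were higher and 2 lower than at 4 h, against 10.3% and 8.62%. From 16 to 30 h 3 were lower, both probe sets of Cpt1a and that of Cd36, against 5.95% of all. In the same comparison 0 were higher, against 4.29%. Without adjustment 4 of the 12 passed a p of 0.05 in either direction, 1 of them higher, and 7985 of all did.

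**Figure D2:**
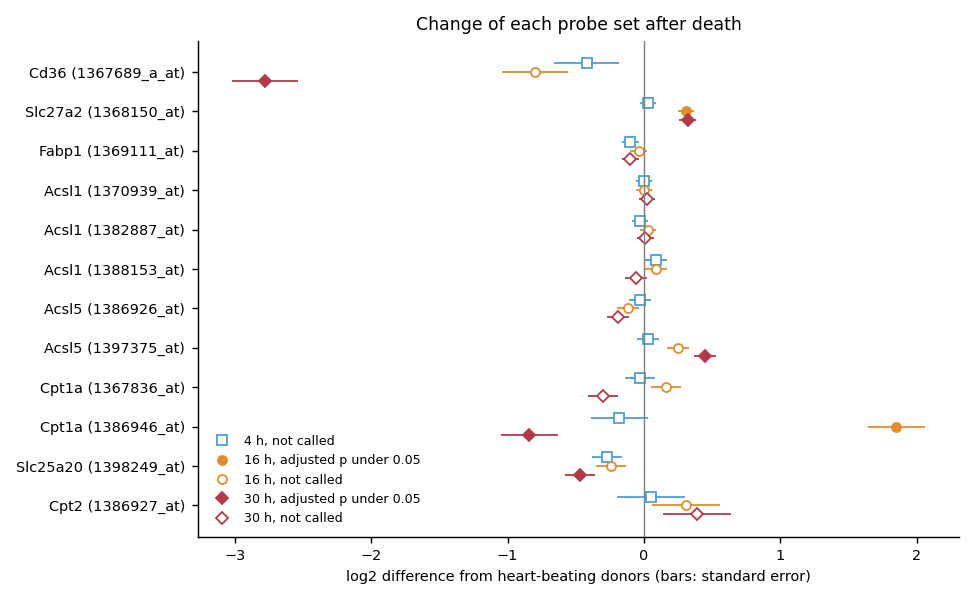
Log2 difference from heart-beating donors (horizontal axis) of each probe set (vertical axis) at 4, 16 and 30 h, with the standard error from limma as bars and filled symbols where the adjusted p was under 0.05. The points farthest from 0 are Cd36 at 30 h (-2.78) and Cpt1a 1386946_at at 16 h (1.85), while all 3 probe sets of Acsl1 stay between -0.06 and 0.09.

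RNA quality as read by Gapdh moved with the groups, which limits the reading of every result at 16 and 30 h. The 3' control probe set of Gapdh exceeded the 5' set by 0.31 to 0.45 log2 units on the heart-beating arrays, 0.27 to 0.46 in the 4 h group, 0.85 to 1.25 in the 16 h group and 1.79 to 2.30 in the 30 h group (exact two-sided permutation p = 0.1 for each of the last 2 groups against the first, the smallest that 3 against 3 can give). For Actb it was 1.80 to 1.90 in heart-beating donors and 2.75 to 2.95 at 30 h (exact p = 0.1). At 16 h the Actb range, 1.89 to 2.54, overlapped with that of heart-beating donors (exact p = 0.2). The same difference for hexokinase was 0.85 to 1.07 in heart-beating donors, 0.89 to 0.96 at 16 h (exact p = 0.5) and 0.84 to 0.99 at 30 h (exact p = 0.3). With the Gapdh difference as a covariate 0 of all probe sets were called at 30 h against heart-beating donors (4438 at an unadjusted p under 0.05) and 70 at 16 h, where 6130 and 1449 had been, and the median standard error at 30 h went from 0.08 to 0.30. The Gapdh ranges of the 16 and 30 h groups touch neither that of heart-beating donors nor each other. Time and RNA quality as read by Gapdh thus cannot be told apart at either time, with the covariate or without it. Array medians lay between 5.83 and 5.9, and replicate arrays correlated at 0.991 or more.

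Cd36, which takes up long-chain fatty acids at the plasma membrane and is known also from macrophages, endothelium and adipocytes, went down with time. Its signal in the 3 heart-beating donors was 10.21, 9.17 and 9.93, and at 4 h it was 9.59, 9.39 and 9.06. At 16 h the 3 animals gave 9.26, 8.68 and 8.96, and at 30 h 6.72, 7.24 and 6.99. All 30 h animals lay below every other animal, whereas the 4 h and 16 h values overlapped with those of heart-beating donors, of which donor 2 was the lowest. The difference at 30 h was -2.78 (SE 0.24, n = 3 per group, limma adjusted p = 1.27e-05), and 30 h was also lower than 16 h by a log2 difference of -1.98 (SE 0.24, adjusted p = 0.000415).

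At 4 h the difference of Cd36 was -0.42 (SE 0.24, adjusted p = 0.982) and at 16 h -0.80 (SE 0.24, adjusted p = 0.0735), neither past the threshold. Without heart-beating donor 2 the value at 16 h was -1.11 and was called (adjusted p = 0.00938), as it was after cyclic loess (-0.87) and with array weights (-0.92). With that Gapdh covariate the values were -0.23 (SE 0.40) at 16 h and -1.42 (SE 0.84, adjusted p = 0.457) at 30 h. In the other 22 of 23 settings the fall at 30 h was called, with values from -3.09 at the lowest.

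A further, brighter probe set lists Cd36 together with Cd36l1, and the rule left it out. The transcript that its annotation cites is a RefSeq transcript of Cd36, so it may be a second reading of the gene, whose fall was much smaller here. Its signal was 11.27, 10.64 and 11.18 in heart-beating donors and 10.56, 10.67 and 10.28 at 30 h, so the groups overlapped. It differed by -0.53 at 30 h (SE 0.15, limma adjusted p = 0.0247) and by -0.03 at 16 h. The change of the Cd36 probe set at 30 h exceeded that of the shared probe set by -2.26 (SE 0.16, adjusted p = 6.46e-09), a test added after the data were seen.

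Markers of Kupffer cells, the macrophages of the liver, were lower at the later times too. Of 14 Kupffer cell markers 12 were measured by the brightest probe set of each gene. Against heart-beating donors 6 were lower at 16 h and 8 at 30 h, where 1.3% and 10.5% of all genes were. At either time 0 were higher, where 4.3% and 12.5% of all genes were. Their summed signal on the linear scale was 5596 to 5947 on the heart-beating arrays, 5671 to 7156 in the 4 h group, 4082 to 4645 in the 16 h group and 3544 to 4218 in the 30 h group. Adgre1, a surface protein of Kupffer cells, fell by 1.38 on the log2 scale at 30 h (SE 0.15), and Mrc1, the mannose receptor of macrophages and sinusoidal endothelium, differed by -0.03 (SE 0.13), both chosen after their values were seen. The part of these cells in the fall of Cd36 was not tested.

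The other cells known for Cd36 were read by lists of their own. Of 11 measured endothelial markers 3 were higher at 16 h and 1 at 30 h, where 4.3% and 12.5% of all genes were. At both times 0 were lower, where 1.3% and 10.5% of all genes were. The summed signal of the endothelial markers was 2668 to 2985 in heart-beating donors and 2499 to 3796 at 30 h. Of 6 measured adipocyte markers 0 were called at 30 h, where 12.5% of all genes were higher and 10.5% lower. At 16 h 1 of the 6 was lower, where 1.3% of all genes were. It was Cidea, a droplet protein, which fell by 0.53 (SE 0.13, adjusted p = 0.0348) and was at -0.30 at 30 h (SE 0.13, adjusted p = 0.121). Cidec, Lipe and Lep differed by -0.27, -0.07 and 0.05 at 30 h (SE 0.11, 0.07 and 0.12). Adiponectin (Adipoq) was at 5.43 ± 0.05 (SD) with the heart beating and 5.52 ± 0.15 at 30 h, and the droplet protein Plin1 at 4.82 ± 0.03 and 4.91 ± 0.16, all below the median of the arrays; Cidea, Cidec and Lipe, at 8.26, 8.20 and 9.04 with the heart beating, were above it. Of 5 measured platelet markers 1 was higher at 30 h and 0 lower, where 12.5% and 10.5% of all genes were. Their summed signal was 353 to 396 in heart-beating donors and 440 to 509 at 30 h. Of 14 measured hepatocyte markers 1 was higher and 3 were lower at 30 h, where 12.5% and 10.5% of all genes were. Asgr1 and Asgr2, the subunits of the asialoglycoprotein receptor, fell by 1.14 (SE 0.17, adjusted p = 0.000488) and 1.33 (SE 0.16, adjusted p = 0.000102), Apoa1 fell by 0.28 (SE 0.08) and Hnf4a rose by 0.76 (SE 0.11). These markers, albumin among them, summed to 113837 to 121363 in heart-beating donors and 105867 to 113707 at 30 h. The single markers named here were likewise chosen after their values were seen.

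Slc27a2, a very-long-chain acyl-CoA synthetase that also serves uptake, rose by a small step that was already complete at 16 h. Its signal was 11.96, 12.04 and 11.92 in heart-beating donors and 12.01, 11.96 and 12.04 at 4 h. It was 12.30, 12.33 and 12.23 at 16 h and 12.32, 12.31 and 12.24 at 30 h. Both later groups lay above both earlier ones with no overlap. The difference from heart-beating donors was 0.31 at 16 h (SE 0.06, limma adjusted p = 0.0116) and 0.32 at 30 h (SE 0.06, adjusted p = 0.00252), and 30 h differed from 16 h by 0.01 (95% interval -0.12 to 0.13). The call at 16 h ended without heart-beating donor 3 (0.29) or 16 h animal 2 (0.29), and with the Gapdh covariate the values were 0.23 and 0.12 and neither was called.

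Fabp1, the main fatty acid binding protein of the liver cytosol, stayed within a narrow band near the top of the scale. Its signal was 13.90, 13.85 and 13.96 in heart-beating donors, 13.77, 13.82 and 13.83 at 4 h, 13.89, 13.84 and 13.86 at 16 h and 13.75, 13.81 and 13.84 at 30 h. The 4 h and 30 h animals lay below the heart-beating donors without overlap, by -0.10 at each time (SE 0.06, adjusted p = 0.992 at 4 h and 0.244 at 30 h). The 95% interval at 30 h ran from -0.23 to 0.02. The highest signal of the table was 14.51, and whether these probes were near saturation was not tested.

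Acsl1, the main long-chain acyl-CoA synthetase of liver, was measured by 3 probe sets. The probe set 1370939_at read 12.45, 12.43 and 12.46 in heart-beating donors, 12.37, 12.47 and 12.48 at 4 h, 12.47, 12.43 and 12.45 at 16 h and 12.47, 12.53 and 12.40 at 30 h. All 4 groups overlapped. At 30 h it differed from heart-beating donors by 0.02 (SE 0.06, adjusted p = 0.871), and 1388153_at by -0.06 (SE 0.08, adjusted p = 0.658). The third, 1382887_at, read 3.90 to 4.07 on all 12 arrays, near the low end of the table at 2.99. In none of the 6 comparisons did the other 2 change differently from the brightest (adjusted p from 0.179 to 0.987 for the pairs, by limma on the difference between probe sets).

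Acsl5, a synthetase of the mitochondrial outer membrane and endoplasmic reticulum, gave readings that parted at 30 h. The brighter probe set, 1386926_at, read 11.15, 11.40 and 11.21 in heart-beating donors and 10.93, 11.20 and 11.05 at 30 h, with overlap. The dimmer, 1397375_at, read 7.70, 7.51 and 7.64 in heart-beating donors and 7.59, 7.76 and 7.59 at 4 h, with overlap. It read 7.82, 7.87 and 7.92 at 16 h, above both earlier groups, and 8.21, 7.95 and 8.04 at 30 h, above all 16 h animals. The first differed by -0.19 at 30 h (SE 0.08, adjusted p = 0.131) and the second rose by 0.45 (SE 0.08, adjusted p = 0.00209). Their changes differed by -0.64 (SE 0.14, adjusted p = 0.00124). The rise at 30 h was called in 20 of 21 settings, and it was 0.08 (SE 0.30) with the Gapdh covariate. Which of them follows the transcript as a whole was not tested.

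Cpt1a, the malonyl-CoA-sensitive entry step, had a peak at 16 h by its brighter probe set, 1386946_at. The heart-beating donors read 8.41, 8.69 and 8.02 and the 4 h animals 8.05, 8.28 and 8.26. At 16 h the 3 animals read 10.61, 10.36 and 9.70, and at 30 h 7.25, 7.72 and 7.62. The 16 h animals were above, and the 30 h animals below, every animal of the other groups. The rise at 16 h was 1.85 (SE 0.21, n = 3 per group, limma adjusted p = 0.000806) against heart-beating donors and 2.03 (SE 0.21, adjusted p = 0.000226) against 4 h. From 16 to 30 h the signal then fell by 2.69 log2 units (SE 0.21, adjusted p = 3.17e-05), 6.46-fold.

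The rise of Cpt1a at 16 h was called in all 24 settings tried, with values from 1.00 as the mean of both probe sets to 2.27 (SE 0.38, adjusted p = 0.0353) with the Gapdh covariate. At 30 h the signal was lower than in heart-beating donors by -0.84 (SE 0.21, adjusted p = 0.0137). That call ended without heart-beating donor 2 (-0.68) or 30 h animal 1 (-0.70), and with the Gapdh covariate the value was 0.15 (SE 0.78). The difference between 30 and 4 h, -0.67 (adjusted p = 0.0435), was called in 13 of 23 settings. It lost the call without any of the 4 h animals, 30 h animal 1 or 3, 16 h animal 2 or heart-beating donor 1 (-0.74 to -0.52). The fall from 16 to 30 h was called in 22 of 23 settings, and read -1.58 as the mean of both probe sets. With the Gapdh covariate it was -2.11 (SE 0.48, adjusted p = 0.267) and not called.

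The other probe set of Cpt1a, 1367836_at, was dimmer and moved less. It read 6.49, 6.62 and 6.39 in heart-beating donors, 6.82, 6.64 and 6.53 at 16 h and 6.15, 6.05 and 6.41 at 30 h. Its difference was 0.16 at 16 h (SE 0.11, adjusted p = 0.479) and -0.30 at 30 h (SE 0.11, adjusted p = 0.0779), while from 16 to 30 h it fell by 0.46 (SE 0.11, adjusted p = 0.0205), a call kept in 14 of 21 settings. It lost that call without 16 h animal 1 (-0.38) or 2 (-0.47) and without 30 h animal 1 (-0.43) or 2 (-0.38). Without 30 h animal 3 its difference at 30 h against heart-beating donors was called (-0.40). The changes of both probe sets ran the same way and differed in size, by 1.69 at 16 h (SE 0.16, adjusted p = 1.67e-05) and by -2.23 from 16 to 30 h (SE 0.16, adjusted p = 1.81e-07).

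Disagreement of this kind was common on these arrays. Over 6609 pairs made of the brightest probe set of a gene and another of the same gene, 14.1% changed differently at 16 h, 34.8% at 30 h and 18.8% from 16 to 30 h. Of the 4 pairs within the route 1 did so at 16 h (Cpt1a), 2 at 30 h (Cpt1a and Acsl5) and 1 from 16 to 30 h (Cpt1a). The Acsl5 pair, at -0.37 for 16 h (SE 0.14, adjusted p = 0.0778), was called as well without 30 h animal 1 or 2. For Cpt1a the difference at 30 h was -0.54 (SE 0.16, adjusted p = 0.0135), and it was no longer called without heart-beating donor 2 (-0.44) or 30 h animal 1 (-0.43).

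**Figure D3:**
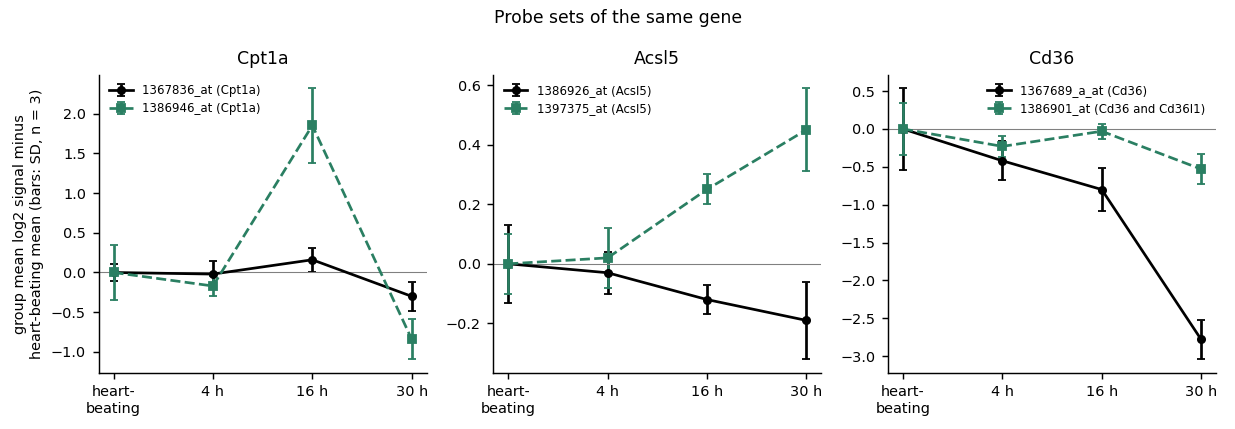
Group mean log2 signal minus the heart-beating mean (vertical axis; bars are the SD over 3 animals) in the 4 groups (horizontal axis) for pairs of probe sets of Cpt1a and Acsl5, and for Cd36 beside the probe set shared with Cd36l1. At 16 h the 2 readings of Cpt1a are 1.85 and 0.16, at 30 h those of Acsl5 are -0.19 and 0.45, and those of Cd36 are -2.78 and -0.53.

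Slc25a20, the carnitine-acylcarnitine carrier of the inner membrane, was lower at 30 h. It read 8.94, 8.84 and 9.11 in heart-beating donors, 8.67, 8.90 and 8.51 at 4 h, 8.77, 8.79 and 8.61 at 16 h and 8.29, 8.62 and 8.58 at 30 h. The 16 and 30 h animals lay below the heart-beating donors without overlap, and the 4 h animals overlapped with them. The differences were -0.27 at 4 h (SE 0.11, adjusted p = 0.933), -0.24 at 16 h (SE 0.11, adjusted p = 0.273) and -0.47 at 30 h (SE 0.11, adjusted p = 0.0115). Without heart-beating donor 3 the value at 30 h was -0.39 and was not called (adjusted p = 0.0577), and with the Gapdh covariate it was 0.37 (SE 0.37).

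Cpt2, the inner transferase, was set apart by the spread among the 30 h animals. It read 8.45, 8.64 and 8.51 in heart-beating donors and 8.44, 8.83 and 8.48 at 4 h. At 16 h it read 8.83, 8.93 and 8.76, above all heart-beating donors, and at 30 h 8.13, 9.12 and 9.52. At 30 h animal 1 was thus the lowest of all 12 arrays and animals 2 and 3 the highest, with an SD of 0.72 against 0.10 in heart-beating donors. The differences were 0.31 at 16 h (SE 0.25, adjusted p = 0.551) and 0.39 at 30 h (SE 0.25, adjusted p = 0.312; 95% interval -0.15 to 0.93).

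Animal 1 of the 30 h group also had the largest Gapdh 3' to 5' difference, 2.30 against 1.82 and 1.79 in the others. Without it the difference of Cpt2 at 30 h was 0.79 and was called (adjusted p = 0.00162), also against 4 h (0.74, adjusted p = 0.00216) and 16 h (0.48, adjusted p = 0.0453). When its fit held the compared groups alone, the 16 h difference was called (0.31, adjusted p = 0.0422). With the Gapdh covariate Cpt2 was higher by 1.33 at 16 h (SE 0.31, adjusted p = 0.0658) and by 2.85 at 30 h (SE 0.65, adjusted p = 0.213), and was called between 4 and 16 h (1.30, adjusted p = 0.0441).

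**Figure D4:**
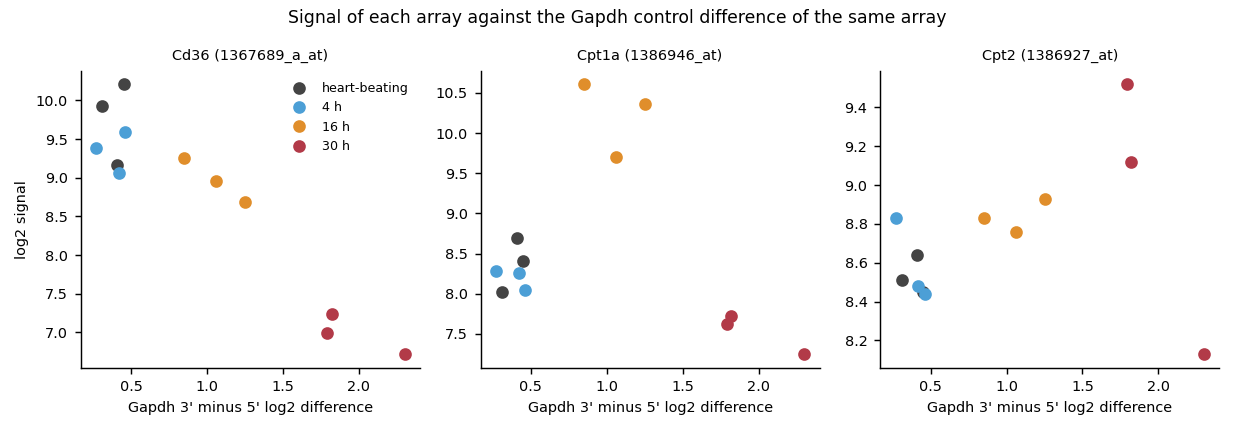
Log2 signal of Cd36, Cpt1a and Cpt2 (vertical axes) on each of the 12 arrays against the Gapdh 3' minus 5' log2 difference of the same array (horizontal axis), coloured by group. The 30 h arrays, at 1.79 to 2.30, hold the lowest Cd36 and Cpt1a signals, Cpt1a peaks in the 16 h arrays at 0.85 to 1.25, and the array at 2.30 has the lowest Cpt2 signal (8.13).

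The genes whose pattern was most like that of Cpt1a were searched among the 299 genes whose group means spanned at least 1 log2 unit, by Pearson's r with 1386946_at over the 12 arrays, which share groups and arrays. They were Nr1d1, a clock repressor (r = 0.943), Hsd17b2, which oxidizes sex steroids (0.942), Dbp, a clock output factor (0.932), Slc25a33, a mitochondrial pyrimidine nucleotide carrier (0.929), and Oaf (0.923). Mean signals of Nr1d1, in the order of the groups from heart-beating to 30 h, were 5.41, 5.28, 8.34 and 5.06. Those of Dbp were 5.16, 5.25, 8.89 and 4.94. Like Cpt1a, all 5 were highest at 16 h and lowest at 30 h.

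For Cd36 the same search gave Ndufa8, a subunit of respiratory complex I (r = 0.985), Itgb1bp1, which binds the tail of a beta-1 integrin (0.980), Ostc, of the oligosaccharyltransferase (0.973), Nck1, an adaptor protein (0.971), and Papola, a poly(A) polymerase (0.970). Ndufa8 had mean signals of 10.75, 10.55, 10.33 and 9.71 in the same order, and Papola 9.20, 8.96, 8.67 and 7.51. All 5 were lowest at 30 h and fell by less than Cd36 in log2 units. These correlations describe the 12 arrays and have no test.

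**Figure D5:**
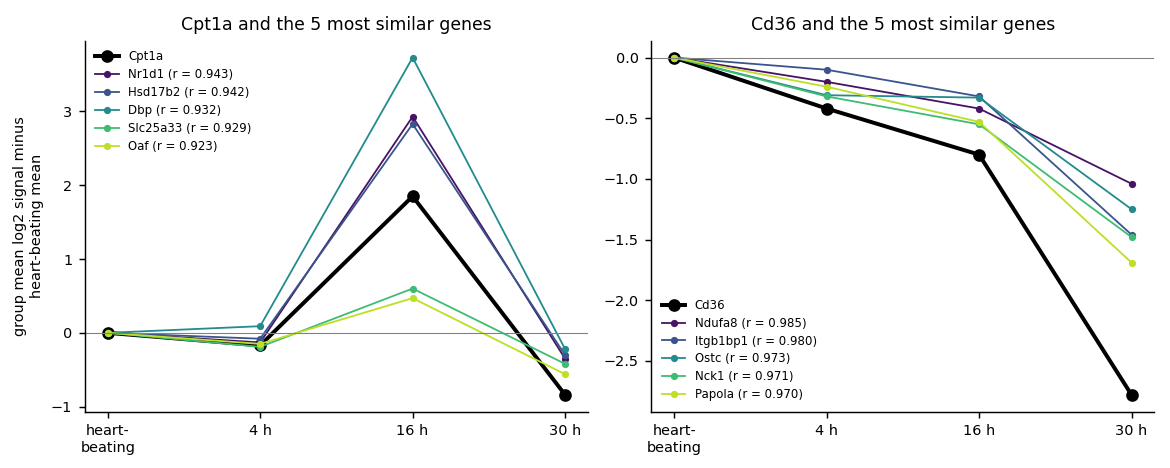
Group mean log2 signal minus the heart-beating mean (vertical axis) in the 4 groups (horizontal axis) for Cpt1a and Cd36 (thick lines) and the 5 genes most correlated with each over 12 arrays. The genes beside Cpt1a peak at 16 h with it, and those beside Cd36 reach their lowest mean at 30 h.

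Other genes of uptake and binding were read by the brightest probe set of each, 17 of 18 being measured. At 4 and 16 h 0 were called, where at 16 h 4.3% of all genes were higher and 1.3% lower. At 30 h 2 were higher and 5 lower, where 12.5% and 10.5% of all genes were. The median difference of the list at 30 h was -0.13, beside 0.01 over all genes. Fabp2, the intestinal binding protein, fell by 0.93 log2 units at 30 h (SE 0.12, adjusted p = 0.000264). Its signal was near the array medians of 5.83 to 5.9 with the heart beating and below them, at 5.07, at 30 h. Fabp7, another binding protein, fell by 0.60 (SE 0.12), Dbi, which binds acyl-CoA esters, by 0.50 (SE 0.09), and Lipc, the hepatic lipase, by 0.44 (SE 0.10). The 2 higher genes were Slc27a5, which rose by 0.32 (SE 0.08, adjusted p = 0.0108), and Fabp3, by 0.22 (SE 0.06, adjusted p = 0.0218). Both were named after their values were seen.

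Of 18 measured genes of activation and thioester cleavage 0 were called at 4 and 16 h. At 16 h 4.3% of all genes were higher and 1.3% lower. At 30 h 1 of the 18 was higher and 4 were lower, where 12.5% and 10.5% of all genes were. The median of the list at 30 h was 0.04. Acot12, a cytosolic acetyl-CoA hydrolase, fell by 1.11 log2 units (SE 0.12, adjusted p = 4.59e-05), from 7.87 ± 0.08 (SD) to 6.76 ± 0.22. Acsm1, a medium-chain synthetase, fell by 0.49 (SE 0.09) and the peroxisomal thioesterase Acot8 by 0.36 (SE 0.07), while Acot4, also peroxisomal, rose by 0.68 (SE 0.21, adjusted p = 0.0332).

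Around carnitine, 11 of 11 listed genes were measured, and 0 were called at 4 and 16 h. At 16 h 4.3% of all genes were higher and 1.3% lower. At 30 h 1 of the 11 was higher and 2 were lower, where 12.5% and 10.5% of all genes were. The median of the list at 30 h was -0.10. Slc22a5, which brings carnitine into the cell, rose by 0.49 at 30 h (SE 0.13, adjusted p = 0.0192). Tmlhe and Bbox1, the first and last enzymes of carnitine synthesis, fell by 0.50 (SE 0.13, adjusted p = 0.0135) and 0.39 (SE 0.11, adjusted p = 0.0292). Cpt1b, the muscle form of the outer transferase, differed by -0.17 at 16 h (SE 0.06, adjusted p = 0.144), when Cpt1a was at its highest. Its signal, 5.93 with the heart beating and 5.75 at 16 h, was near the array medians of 5.83 to 5.9. This gene was chosen after its values were seen.

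Of 17 measured regulators 0 were called at 4 h. At 16 h 2 were higher and 1 was lower, where 4.3% and 1.3% of all genes were. At 30 h 2 were higher and 2 lower, where 12.5% and 10.5% of all genes were. Creb3l3, a fasting-responsive factor that acts with PPAR alpha, rose by 0.51 at 16 h (SE 0.07, adjusted p = 0.00265) and 0.40 at 30 h. Hnf4a, a nuclear receptor of the hepatocyte, rose by 0.61 and 0.76 (SE 0.11 for each), Ppard, a relative of PPAR alpha, fell by 0.64 at 16 h (SE 0.14, adjusted p = 0.0231), and Rxra, the partner of PPAR alpha, fell by 0.40 at 30 h (SE 0.11). Values for Ppara itself, chosen after they were seen, were -0.01, -0.00 and -0.05 at 4, 16 and 30 h (SE 0.07, limma adjusted p = 0.999, 0.996 and 0.697). Its group means, 5.35 to 5.40, lay below the array medians of 5.83 to 5.9, and whether the transcript was detected was not tested. Acaca and Acacb make the malonyl-CoA that blocks Cpt1a and Mlycd removes it, and all 3 were likewise chosen afterwards. At 16 h Acaca differed by 0.30 (SE 0.14, adjusted p = 0.25), Acacb by -0.13 (SE 0.10, adjusted p = 0.552) and Mlycd by 0.10 (SE 0.11, adjusted p = 0.684). Acacb, at 5.04 with the heart beating and 4.91 at 16 h, was also below the array medians.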

How the data were processed

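Hepatocyte RNA of 12 rats, 3 per group, was measured on 1 expression array each. The authors deposited log2 signals per probe set, made with RMA (background correction, quantile normalization and a summary of probes) and used with limma, per the submitters' processing notes; versions are not given in these sources. The number of arrays limits the precision. Of 31099 probe sets 57 controls were set aside for RNA quality. Of the other 31042, 20826 carried 1 gene symbol, 436 several and 9780 none. The gene IDs of 20758 matched RefSeq GRCr8, used for names and promoters.

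With 1 mean per group as its terms, a linear model was fitted to the deposited values of 31042 probe sets with limma 3.58.1 (lmFit, eBayes) in R 4.3.3, with 8 residual and 4.93 prior degrees of freedom, no filter and no further normalization. Calls used a Benjamini-Hochberg adjusted p under 0.05 over all probe sets within a comparison. Pairs of probe sets of a gene were tested by the same fit on their difference. RNA quality was compared with exact permutation tests (SciPy 1.17.1). Lists were counted on the brightest probe set of each gene. Names follow a rule: every member probe set, up to 4 called genes of each list with the smallest p, and the 5 genes most correlated with Cpt1a and Cd36; exceptions are marked. Of the 15 hepatocyte, 13 endothelial, 8 adipocyte and 6 platelet markers listed, 14, 11, 6 and 5 were measured; stellate cell, red cell and cholangiocyte lists were 12 of 12, 7 of 10 and 5 of 6. At 30 h these 3 had 5, 4 and 0 members higher and 0 lower, where 12.5% of all genes were higher and 10.5% lower.

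The members and lists were chosen with earlier results of these data known. The alternatives were median centring, cyclic loess, a further quantile normalization, only probe sets above the median signal, 1 value per gene (the brightest probe set or the mean), array weights, a robust variance trend, only the groups compared, a replicate block, the Gapdh difference as a covariate, no 30 h group, and leaving out each array.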

Additional observations from a re-analysis of the deposited data

How the results depend on the processing

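The rise of Cpt1a 1386946_at at 16 h kept its call in every alternative run, though the Gapdh ranges of these groups do not overlap. The other probe set of the gene, 1367836_at, was called at 16 h against heart-beating donors in 0 of 22 alternatives. The Gapdh covariate changed most: members called by limma at 16 h against heart-beating donors went from 2 to 1, and at 30 h from 5 to 0 against heart-beating donors, 4 to 0 against 4 h and 3 to 0 against 16 h (1, 1 and 3 at an unadjusted p under 0.05), with larger standard errors. Member pairs of probe sets that changed differently went to 0 at 30 h against heart-beating donors, 4 h and 16 h (0, 0 and 1 at an unadjusted p under 0.05). Of all 6609 pairs 1, 1 and 0 were called in these comparisons with the covariate. Some differences called without the covariate came out with the other sign under it, and were then not called. For Cpt1a 1386946_at at 30 h they were 0.15 (SE 0.78) against heart-beating donors and 0.33 (SE 0.78) against 4 h. Slc25a20 at 30 h was at 0.37 (SE 0.37), and the Acsl5 pair at 30 h at 0.12 against heart-beating donors and 0.18 against 4 h. The Cpt1a pair at 30 h came to 0.00. Cyclic loess left 1 member called between 4 and 16 h, and array weights called 4 at 16 h; the cause was not tested.

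Leaving out single arrays gave 0 to 0 called members at 4 h, 1 to 3 for 16 h and 4 to 6 for 30 h against heart-beating donors, 1 to 2 between 4 and 16 h, 3 to 4 between 4 and 30 h and 2 to 3 between 16 and 30 h. Pairs ranged from 0 to 0 at 4 h, 1 to 2 at 16 h, at 30 h and between 4 and 30 h, and 1 to 1 between 4 and 16 h and between 16 and 30 h.

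The replicate numbers name separate animals. Residuals of same-numbered arrays of different groups correlated at -0.27 to 0.11 (median -0.03), so the numbers do not pair them. With a replicate block 2 pairs differed between 4 and 30 h in place of 1, and no other count moved by more than 1.5 times.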
